A study of Mus musculus with 4 samples.

Results

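The 35 genes described here are the enzymes of glycolysis, the sugar and lactate transporters and regulators that set its rate, other targets of the hypoxia-inducible factors (HIF) and the HIF subunit gene Hif1a. They were chosen by gene name among the 23520 gene features that passed a filter on dim signals, and every one of the 35 was on the array and well above background on all 4 arrays. They fall into 16 glycolytic enzymes, 6 transport and flux genes, 12 other HIF targets and Hif1a. The study sorted cells of 4T1 tumours, a mouse mammary carcinoma line implanted in mice of strain BALB/C, by aldehyde dehydrogenase (ALDH) activity with the ALDEFLUOR reagent, which turns fluorescent inside cells with active enzyme. ALDH-low and ALDH-high fractions were collected at zeitgeber time 0 (ZT0) and at ZT12, and the labels name no treatment. Each of the 4 groups had 1 array, so no value below has a replicate, and the sources used here do not say how many mice or tumours gave a fraction or how old the animals were.

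Several features of these arrays bear on every value. The ZT0 groups shared one slide and the ZT12 groups another, so slide cannot be told apart from time. The ALDH-low array of ZT0 and the ALDH-high array of ZT12 sat at position 1_1 of their slides, and the other 2 at position 1_2, so array position cannot be told apart from a difference between times in the ALDH contrast. Spike-in controls had a slope of 0.873 and 0.789 at position 1_1 and 0.956 and 0.944 at position 1_2. Between 55.8% and 60.6% of spots were well above background, no spot was saturated, and the median SD of replicate spots was 0.0370 to 0.0450 log2 units, which covers the precision within an array alone. Although the labels call the sorted cells 4T1 cells, markers of blood cells were measured on every array. Epithelial markers were present too: Krt8, a keratin of luminal epithelium, had levels of 5.68, 1.61, 4.28 and 4.36. Here and below a level is the log2 processed signal minus the log2 of the 75th percentile of its array, and a set of 4 levels runs in the order ZT0 ALDH low, ZT0 ALDH high, ZT12 ALDH low, ZT12 ALDH high. In bulk samples such as these, fewer cells of a type and less RNA per cell cannot be told apart.

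Glycolysis breaks glucose down to pyruvate through a chain of cytosolic enzymes, and lactate dehydrogenase then turns pyruvate into lactate. When oxygen is low, the prolyl hydroxylases of the EGLN family no longer mark HIF alpha subunits for destruction by the VHL complex, and the stabilised factor binds a short core motif, the hypoxia response element, near its target genes. Those targets include most glycolytic enzymes, glucose and lactate carriers, the pH regulator carbonic anhydrase IX, the angiogenic factor VEGF-A and collagen prolyl hydroxylases. Tumour cells, neutrophils and activated macrophages all make heavy use of this programme.

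The core motif was searched as ACGTG and GCGTG on both strands in RefSeq promoter windows of build GRCm38.p6 (250 bases before a transcription start and 50 after it). A palindromic CACGTG counts on each strand. Of the 35 genes, 33 had a window, and 30 of these (90.9%) held a match, against 46.7% of all 27025 genes with a window. By window, 38 of 47 held one (80.9%), against 43.8% of 32851 windows of the same length. Both motifs contain a CG step, and the windows of these genes had a median GC content of 62.3% against 52.7% over all windows. Among all windows at or above the lower quartile of that GC content (56.5%), 65.8% held a match. The Gpi1, Tpi1 and Eno2 windows held none, which says only that these letters are not in these windows. The bases before the start are shown for 5 genes that span the range of behaviour on the arrays, with matches in capitals: Pfkfb4 and Slc16a3, among the most different between fractions, Bnip3 and Ldha, with several matches, and Car9, which ran the other way at ZT0. Their positions are chr9:108991652-108991901 on the plus strand for Pfkfb4, chr11:120948817-120949066 on the plus strand for Slc16a3, chr7:138909507-138909756 on the minus strand for Bnip3, chr7:46845554-46845803 on the plus strand for Ldha and chr4:43506776-43507025 on the plus strand for Car9.
Pfkfb4: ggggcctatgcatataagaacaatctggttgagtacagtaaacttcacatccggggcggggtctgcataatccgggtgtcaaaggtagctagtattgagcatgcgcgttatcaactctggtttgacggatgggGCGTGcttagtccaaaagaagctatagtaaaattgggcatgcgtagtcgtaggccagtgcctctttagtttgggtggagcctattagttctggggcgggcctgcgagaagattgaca
Slc16a3: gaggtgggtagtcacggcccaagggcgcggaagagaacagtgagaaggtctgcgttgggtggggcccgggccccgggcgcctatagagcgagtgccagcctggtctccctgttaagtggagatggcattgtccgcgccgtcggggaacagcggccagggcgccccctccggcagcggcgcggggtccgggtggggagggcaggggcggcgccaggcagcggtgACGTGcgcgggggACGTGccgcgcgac
Bnip3: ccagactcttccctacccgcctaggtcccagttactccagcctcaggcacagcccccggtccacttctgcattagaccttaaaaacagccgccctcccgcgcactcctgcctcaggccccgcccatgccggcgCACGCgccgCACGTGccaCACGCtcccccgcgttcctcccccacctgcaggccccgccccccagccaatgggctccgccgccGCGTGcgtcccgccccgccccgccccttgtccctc
Ldha: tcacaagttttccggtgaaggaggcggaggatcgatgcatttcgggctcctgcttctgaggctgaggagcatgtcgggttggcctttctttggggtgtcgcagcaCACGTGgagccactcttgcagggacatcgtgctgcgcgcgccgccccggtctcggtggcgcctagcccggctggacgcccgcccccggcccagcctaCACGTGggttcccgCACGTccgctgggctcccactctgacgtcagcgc
Car9: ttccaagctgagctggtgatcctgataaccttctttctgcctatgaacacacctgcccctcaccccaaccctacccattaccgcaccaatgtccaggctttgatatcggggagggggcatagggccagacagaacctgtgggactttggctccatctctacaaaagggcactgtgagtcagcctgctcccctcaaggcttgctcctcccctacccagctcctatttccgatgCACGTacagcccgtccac
Each of these 5 windows holds at least 1 match, although the ALDH differences of the genes at ZT0 run from -2.90 to 3.65.

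The comparison of the ALDH-high with the ALDH-low fraction asks whether cells with high ALDH activity differ in these programmes, and the same comparison was made at each time. At ZT0, 13 of the 35 genes were at least 2-fold higher in the ALDH-high fraction, which is 37.1% of them against 20.5% of all features. Another 5 were at least 2-fold lower (14.3%, against 31.5% of all features). At ZT12 the picture turned over: 15 were at least 2-fold lower (42.9%, against 17.9%) and 0 were higher (against 32.2%). The same 12 genes were at least 2-fold higher at ZT0 and at least 2-fold lower at ZT12, or 34.3% of the members against 15.0% of all features. Their median difference was 0.68 at ZT0 and -0.81 at ZT12, and that of all features was -0.32 and 0.30. These shifts of all features depend on scaling: with median scaling they were 0.19 and -0.64, and the members then counted 20 higher and 3 lower at ZT0 and 29 lower at ZT12. With quantile normalization 8 were higher and 5 lower at ZT0, and 19 were lower at ZT12. The shares of all features under these other scalings are not given here, so these counts cannot be set against them. An additive limma fit of ALDH and time leaves 1 residual degree of freedom, which here is the change of the ALDH difference between times. A difference that reverses between times thus enters the spread of the fit, which does not measure replicate spread. The fit therefore cannot test these reversals. It called 0 of 23520 features for ALDH (0.0%) and 0 for time (0.0%) at an adjusted p of 0.05. At an unadjusted p under 0.05 it held 7 features for ALDH and 2 for time, none of them a member, and the lowest unadjusted ALDH p of a member was 0.269, for Car9.

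**Figure D1:**
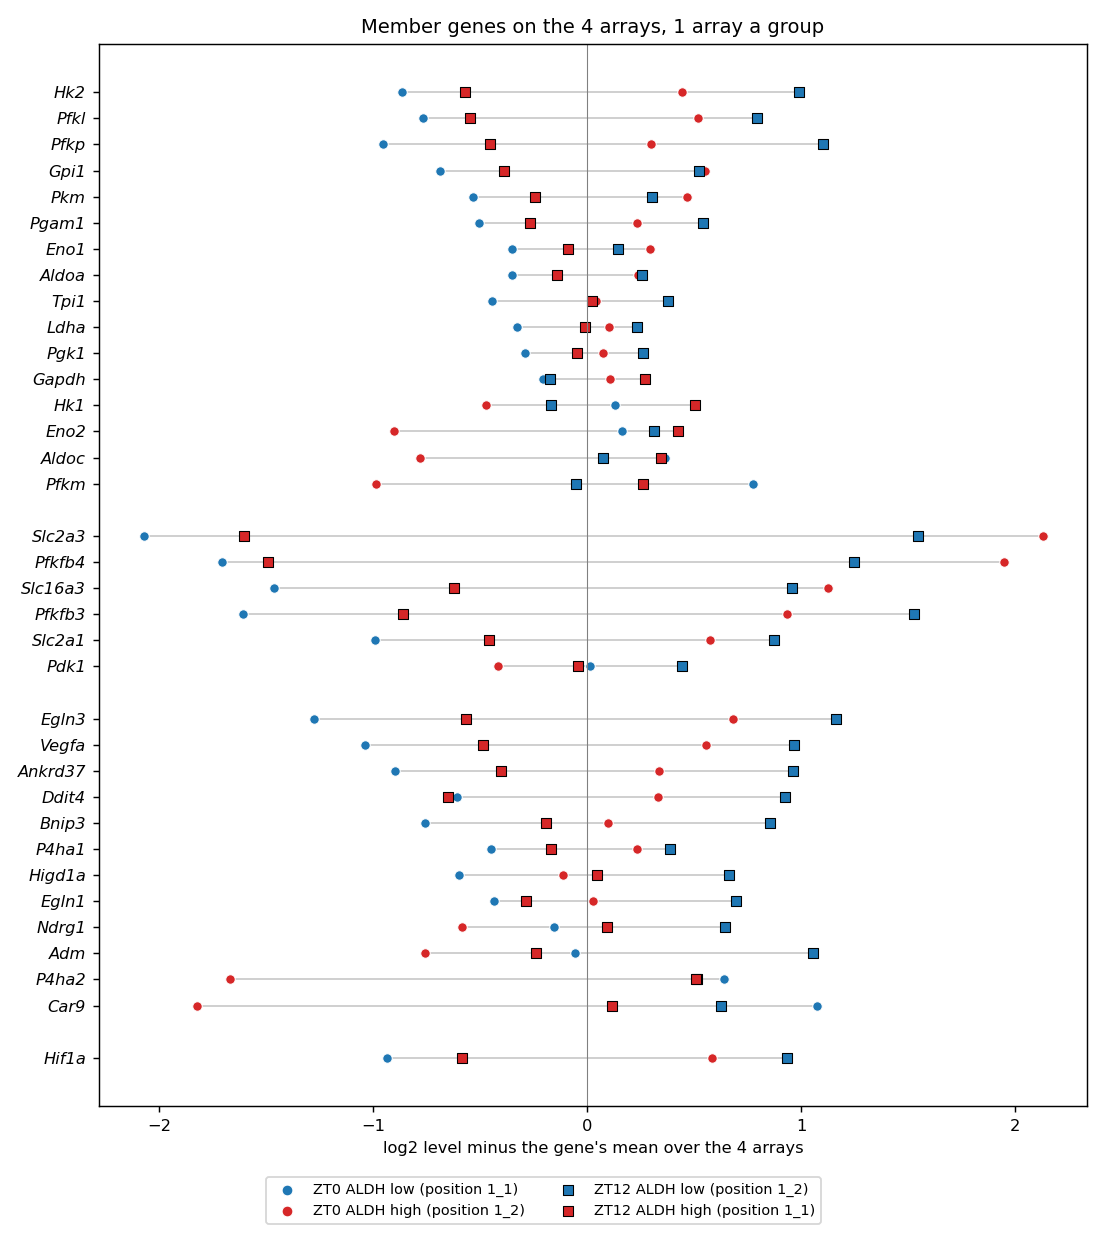
Level of each of the 35 genes on each array, as the log2 level minus the mean of the gene over the 4 arrays; circles are ZT0, squares ZT12, blue ALDH low and red ALDH high, and grey lines join the extremes. In 24 genes the ZT0 ALDH-high and ZT12 ALDH-low arrays (position 1_2) both lie to the right of the other 2 arrays.

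Transport and flux genes differed most. Slc2a3, which encodes the high-affinity glucose transporter GLUT3, had levels of 1.60, 5.80, 5.22 and 2.07. The ZT0 ALDH-high and ZT12 ALDH-low arrays were thus high and the other 2 low, with a gap of over 3 log2 units between the pairs. It was 18.4-fold higher in ALDH-high cells at ZT0 and 8.87-fold lower at ZT12. The brightest Slc2a3 probe lies at chr6:122678075-122678134 (mm9, minus strand), and a second probe gave 2.94 and -2.79 log2 units. Pfkfb4 encodes a bifunctional enzyme that sets fructose 2,6-bisphosphate, the main allosteric activator of phosphofructokinase. Its levels were 2.41, 6.06, 5.36 and 2.62 (probe at chr9:108934652-108934711, mm9, plus strand), a 12.5-fold higher value at ZT0 and a 6.68-fold lower one at ZT12. Pfkfb3, the related isoenzyme that favours synthesis of the activator, had levels of 3.01, 5.55, 6.14 and 3.75. The same 2 arrays were high, but here ZT12 ALDH low was the highest of all.

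Slc16a3, the lactate exporter MCT4 of glycolytic cells, had levels of 4.70, 7.29, 7.12 and 5.54 (probe at chr11:120820023-120820082, mm9, plus strand). It was 6.01-fold higher in ALDH-high cells at ZT0 and 2.99-fold lower at ZT12. Slc2a1, the widespread glucose transporter GLUT1, had levels of 4.59, 6.16, 6.45 and 5.12, so its differences of 1.57 and -1.33 were the smallest of the 5 genes of this group that passed 2-fold at both times. Pdk1, the kinase that inactivates pyruvate dehydrogenase and keeps pyruvate out of mitochondria, stood apart from the other 5. Its levels were 1.15, 0.72, 1.58 and 1.09, a difference of -0.43 at ZT0 and -0.49 at ZT12. Both ALDH-low arrays lay above both ALDH-high arrays for Pdk1, but its 5 probes had mixed signs at each time, and the ZT0 value was 0.08 with median scaling. The median difference of the 6 genes was 2.56 at ZT0 and -1.98 at ZT12, with ranges over 7 alternative settings of 2.11 to 3.07 and -2.92 to -1.90.

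Among the glycolytic enzymes the differences were smaller and split by isoform. At ZT0, 12 of 16 were higher in the ALDH-high fraction and 4 lower, with a median of 0.54 log2 units. At ZT12, 11 were lower and 5 higher, with a median of -0.33. Past 2-fold at ZT0 were Hk2, Gpi1, Pfkl and Pfkp above (25.0%, against 20.5% of all features) and Pfkm, Aldoc and Eno2 below (18.8%, against 31.5%). At ZT12 Hk2, Pfkl and Pfkp were below (18.8%, against 17.9%) and 0 above (against 32.2%).

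Hexokinase traps glucose in the cell as its 6-phosphate, and 2 of its isoenzymes are members. Hk2, the inducible form, had levels of 1.16, 2.46, 3.01 and 1.45, with both position 1_2 arrays above the others. Its difference was 1.31 at ZT0 and -1.56 at ZT12. Hk1, the housekeeping form, had levels of 6.98, 6.37, 6.68 and 7.35 and the opposite order of arrays, with -0.60 and 0.67. Median scaling turned the ZT12 value to -0.26, and not every Hk1 probe shared that order, as described with the probes further on. Gpi1, glucose phosphate isomerase, gave 6.69, 7.93, 7.90 and 6.99, so the 2 high arrays were level and the difference was 1.24 at ZT0 and -0.91 at ZT12.

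Phosphofructokinase commits sugar to glycolysis and is made from liver, muscle and platelet subunits. Pfkl (2.24, 3.52, 3.80 and 2.46) and Pfkp (2.74, 3.99, 4.79 and 3.24) shared one order of arrays. Their differences were 1.28 and 1.25 at ZT0 and -1.34 and -1.56 at ZT12. Pfkm, the muscle subunit, ran the other way, with levels of 0.07, -1.69, -0.76 and -0.45. It was 3.38-fold lower in ALDH-high cells at ZT0, while its 0.31 at ZT12 was -0.62 with median scaling. Aldolase splits fructose 1,6-bisphosphate. Aldoa, its main form, gave 8.20, 8.79, 8.81 and 8.41 (0.59 and -0.40). Aldoc, the brain-enriched form and a HIF target, gave 2.94, 1.79, 2.64 and 2.91. In Aldoc 1 array was low, ZT0 ALDH high, and the other 3 lay between 2.64 and 2.94, so that the ALDH difference was -1.15 at ZT0 and 0.27 at ZT12 (-0.66 with median scaling).

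Enolase makes phosphoenolpyruvate, and its isoforms parted in the same way. Eno1, the ubiquitous form, gave 6.52, 7.16, 7.01 and 6.78, so the ALDH-high fraction was 0.64 log2 units higher at ZT0 and 0.23 lower at ZT12. Eno2, the neuronal form, gave 1.06, -0.01, 1.20 and 1.31, with the ZT0 ALDH-high array again alone at the bottom (-1.06 at ZT0, 0.11 at ZT12, and -0.82 at ZT12 with median scaling). Pkm, pyruvate kinase, lay just under the 2-fold line at ZT0 (1.998-fold) and at -0.55 at ZT12. Gpi1, 2.36-fold at ZT0, and Eno2, 2.09-fold lower, were just past that line.

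The enzymes of the lower pathway and Ldha, lactate dehydrogenase A, gave differences under 2-fold, which at ZT12 rested on the scaling. Tpi1 (triose phosphate isomerase) gave 0.48 and -0.36, Pgk1 (phosphoglycerate kinase) 0.37 and -0.31, Pgam1 (phosphoglycerate mutase) 0.74 and -0.81, and Ldha 0.43 and -0.24. These ALDH differences in log2 units at ZT0 and ZT12 were all positive and then negative for the brightest probe of each gene. At ZT12 Ldha, Pgk1 and Pgam1 were more than 2-fold lower with median scaling (-1.18, -1.25 and -1.74), with quantile normalization (-1.16, -1.20 and -1.07) and in the authors' series table (-1.13, -1.17 and -1.02). Gapdh, often used as a reference transcript, had the least range of all, with levels of 8.62, 8.94, 8.66 and 9.10 and differences of 0.32 and 0.44. The sign at ZT12 was the opposite with median scaling (-0.49), with quantile normalization (-0.79), with normexp and quantile normalization (-0.78), with the mean of its probes (-0.43) and in the authors' series table (-0.78).

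Hif1a itself, the oxygen-regulated subunit, had levels of 3.22, 4.74, 5.09 and 3.58 (probe at chr12:75047819-75047878, mm9, plus strand). The ZT0 ALDH-high and ZT12 ALDH-low arrays were both above the others, and the ALDH difference was 1.52 at ZT0 and -1.52 at ZT12. HIF-1 alpha is regulated chiefly through protein stability, which these arrays do not measure. Of its negative regulators, Egln3, a prolyl hydroxylase that is itself a HIF target, had levels of 2.07, 4.03, 4.51 and 2.78. It was 3.88-fold higher in ALDH-high cells at ZT0 and 3.31-fold lower at ZT12, the widest range among the non-glycolytic targets that shared the order of Hif1a. Egln1, the main oxygen sensor, gave 3.23, 3.69, 4.36 and 3.38 (0.46 and -0.98). The Egln1 difference at ZT0 was between -0.21 and -0.18 with the quantile-type settings and in the series table.

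The other HIF targets fell into several patterns. Vegfa, which drives new vessel growth, gave 2.81, 4.41, 4.82 and 3.36 on its brightest probe (chr17:46155512-46155571, mm9, minus strand), 3.02-fold higher in ALDH-high cells at ZT0 and 2.74-fold lower at ZT12. Ankrd37, a small ankyrin repeat gene, gave 1.98, 3.22, 3.84 and 2.48 (1.24 and -1.36). Ddit4, the mTOR inhibitor REDD1, gave 4.81, 5.75, 6.34 and 4.77 (0.94 and -1.57). In these 3 genes both position 1_2 arrays lay above both position 1_1 arrays. Bnip3, a mitophagy receptor, shared that order with 5.16, 6.02, 6.77 and 5.73 (0.85 and -1.04), and so did P4ha1, a collagen prolyl hydroxylase subunit, with 0.33, 1.01, 1.17 and 0.61 (0.68 and -0.56).

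Car9 and P4ha2 formed the second pattern, in which 1 array was low. Car9, the membrane carbonic anhydrase widely used as a hypoxia marker of carcinoma cells, had levels of 2.85, -0.04, 2.40 and 1.89 (probe at chr4:43526518-43526577, mm9, plus strand). It was 7.44-fold lower in ALDH-high cells at ZT0 and 1.42-fold lower at ZT12. A second Car9 probe gave -2.52 and -0.37. P4ha2, the second collagen prolyl hydroxylase subunit, had levels of 0.52, -1.79, 0.39 and 0.39 (probe at chr11:53945032-53945091, mm9, plus strand), 4.95-fold lower at ZT0 and level at ZT12, with a difference of -0.00 (-0.94 with median scaling). The paralogues P4ha1 and P4ha2 therefore ran in opposite directions at ZT0. Adm, the vasodilator peptide adrenomedullin, was lower in ALDH-high cells at both times, with levels of 0.53, -0.17, 1.64 and 0.35 (-0.70 and -1.29). For Car9, P4ha2, Adm and Pdk1 both ALDH-low arrays lay above both ALDH-high arrays, which is 11.4% of the members against 6.84% of all features.

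Ndrg1, a stress response gene, and Higd1a, a mitochondrial inner membrane protein, formed the third pattern. Ndrg1 gave 5.69, 5.26, 6.49 and 5.94 (-0.43 and -0.55, and 0.08 at ZT0 with median scaling). Higd1a gave 4.73, 5.22, 5.99 and 5.38 (0.49 and -0.61). For these genes and Eno2 both ZT12 arrays lay above both ZT0 arrays, 3 of 35 members (8.57%) against 2.13% of all features. The order that most members shared was another: both position 1_2 arrays above both position 1_1 arrays in 24 of 35 (68.6%, against 32.4% of all features). The reverse order held for Hk1, Pfkm and Aldoc (8.57%, against 47.9%). Because array position coincides with these pairs, what position contributes cannot be told apart from what the fractions contribute.

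**Figure D2:**
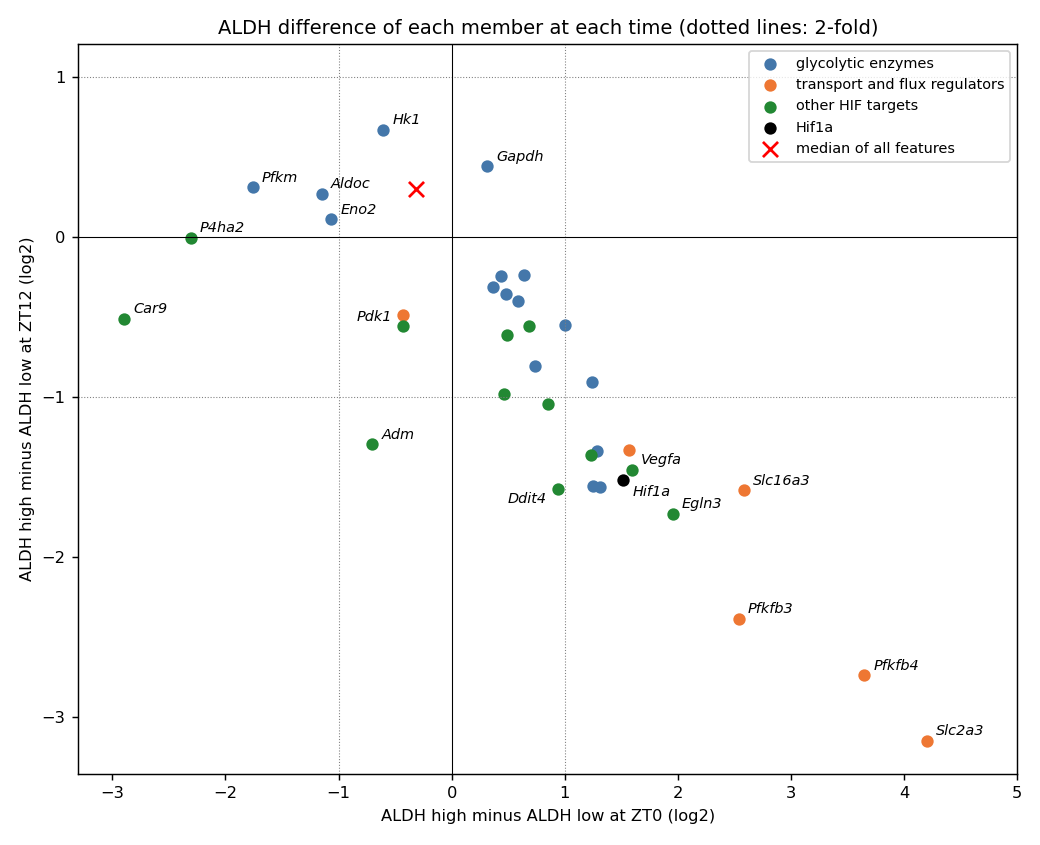
Log2 difference of ALDH-high from ALDH-low cells at ZT0 (horizontal) against ZT12 (vertical) for each of the 35 genes, coloured by group; the red cross is the median of all 23520 features and dotted lines mark 2-fold. The transport and flux genes Slc16a3, Pfkfb3, Pfkfb4 and Slc2a3 lie farthest to the right, and Car9 and P4ha2 lie at the left.

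Glycolytic enzymes and other HIF targets were then set against each other. At ZT0 their medians were 0.54 and 0.59 log2 units, a gap of 0.05. At least 2-fold higher were 4 of 16 enzymes (25.0%) and 3 of 12 other targets (25.0%), both near the 20.5% of all features. The targets covered more range, from -2.90 for Car9 to 1.96 for Egln3, than the enzymes, from -1.76 for Pfkm to 1.31 for Hk2. At ZT12 the medians were -0.33 and -1.01, a gap of -0.68. At least 2-fold lower were 3 of 16 enzymes (18.8%, near the 17.9% of all features) and 6 of 12 other targets, a larger share. These counts were 8 of 16 and 5 of 12 with quantile normalization and 11 of 16 and 11 of 12 with median scaling. The shares of all features under those scalings are not given here. All 12 targets were below 0 at ZT12 (P4ha2 at -0.00, and above 0 with quantile normalization), and 11 of 16 enzymes were. The gap between the lists did not keep its sign. At ZT0 it was -0.34 with quantile normalization, -0.19 with averaged probes and -0.33 in the series table, and at ZT12 it was 0.18 with quantile normalization and 0.17 in that table. Over both times together the median difference was 0.03 for the enzymes and -0.18 for the targets. Within position 1_1, which sets ZT12 ALDH high against ZT0 ALDH low, the medians were 0.27 and 0.26. Within position 1_2, which sets ZT0 ALDH high against ZT12 ALDH low, they were -0.29 and -0.71.

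The ALDH difference also varied with signal level. Over all features it followed the mean level: at ZT0 the median was 0.66 for features at levels from 3 to 4, -0.39 from 7 to 8 and -0.69 at 8 and above, and at ZT12 it was -0.60, 0.52 and 1.49 in the same bands. The band below 0 held 13849 of the 23520 features, with medians of -0.64 at ZT0 and 0.81 at ZT12, so these dim features weigh on the shares and medians of all features. Several enzymes (Aldoa, Gapdh, Pgk1 and Ldha) were at a mean level above 8, where just 110 features lay, and 5 of 6 transport and flux genes and 7 of 12 other targets lay between 3 and 7. Read against the median of their own band, 12 of 16 enzymes, 5 of 6 transport and flux genes and 7 of 12 other targets were above it at ZT0. At ZT12, 13 of 16, 6 of 6 and 12 of 12 were below it. The role of signal level, or of the spike-in slope that differed between positions, was not tested.

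**Figure D3:**
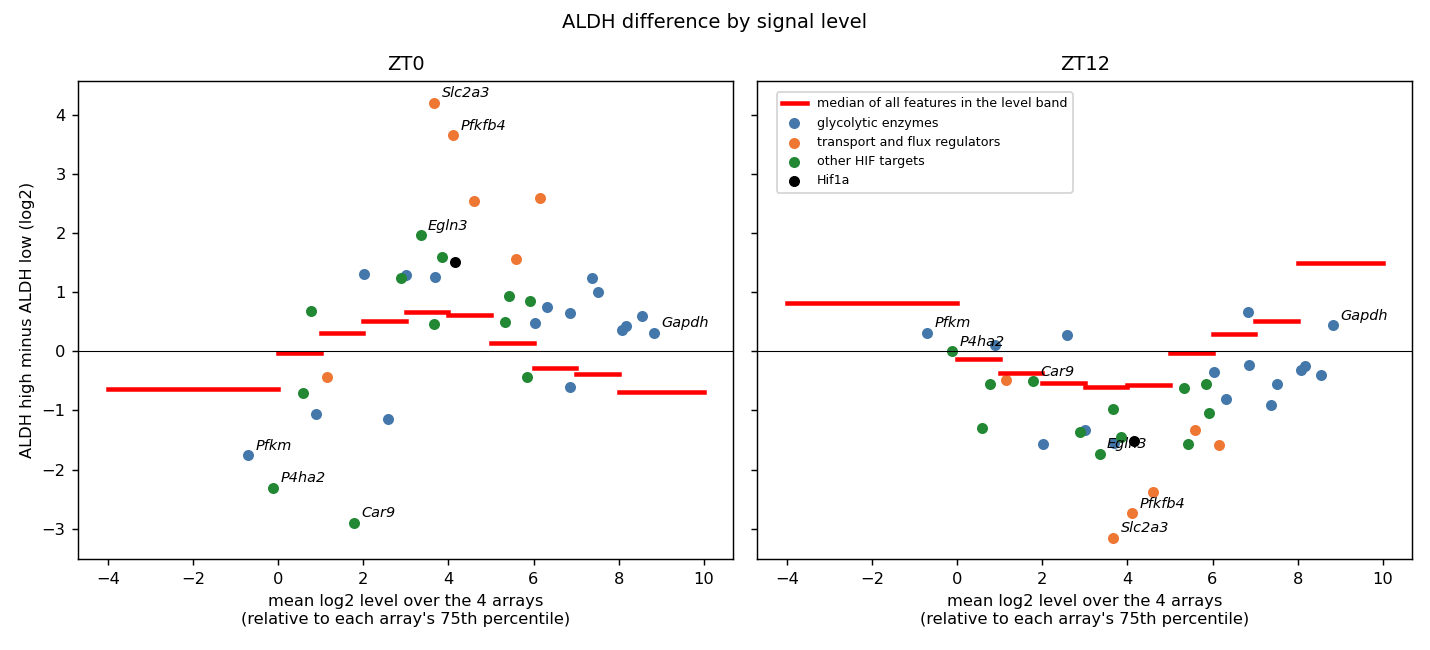
Log2 difference of ALDH-high from ALDH-low cells at ZT0 (left) and ZT12 (right) against the mean log2 level of the gene, for the 35 genes; red bars are medians of all features in each level band, with the outer bars covering all features below 0 and at 8 and above. The red bars are high at intermediate levels at ZT0 and low there at ZT12, and Slc2a3 and Pfkfb4 lie at least 3 log2 units above them at ZT0.

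The comparison over time asks how each fraction differed between ZT0 and ZT12, and it uses the same 4 arrays. In ALDH-low cells, 19 of 35 genes were at least 2-fold higher at ZT12 (54.3%, against 17.5% of all features) and 0 were lower (against 32.7%). Slc2a3 was 3.62 log2 units higher, Pfkfb3 3.13, Pfkfb4 2.95, Egln3 2.44, Slc16a3 2.42 and Pfkp 2.06. In ALDH-high cells, 10 genes were at least 2-fold lower at ZT12 (28.6%, against 20.8%) and 5 were higher (14.3%, against 32.5%). The 10 included Slc2a3 (-3.73), Pfkfb4 (-3.44), Pfkfb3 (-1.79), Slc16a3 (-1.75), Egln3 (-1.25) and Hif1a (-1.17). The 5 higher genes were Pfkm (1.25), Aldoc (1.13), Eno2 (1.32), Car9 (1.94) and P4ha2 (2.17), the same 5 that were at least 2-fold lower in ALDH-high cells at ZT0. Both counts use the ZT0 ALDH-high array. With median scaling, 29 genes were higher in ALDH-low cells, and 16 were lower and 2 higher in ALDH-high cells. The shares of all features under that scaling are not given here, so these counts cannot be set against them. The enzymes had a time median of 0.58 in ALDH-low and -0.25 in ALDH-high cells and the other targets of 1.19 and -0.30. In ALDH-high cells the value of the other targets was 0.03 with quantile normalization.

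Other genes of these pathways, from lists drawn up beside the members, gave the same picture in part. These lists were chosen with earlier results of these data known and were read from the same arrays. Their likeness to the members is therefore no independent support. Of 14 further genes of the HIF machinery 12 were measured (Hif3a and Arnt2 did not pass the filter), with medians of 1.02 at ZT0 and -0.78 at ZT12. At ZT0, 6 of the 12 were at least 2-fold higher (against 20.5% of all features) and Epas1 was lower (8.33%, against 31.5%). At ZT12, 5 were lower (41.7%, against 17.9%) and Crebbp was higher (8.33%, against 32.2%). The 6 and the 5 include Hif1an, well above background on just 3 arrays. With a filter on all 4 arrays 11 genes remained, 5 of them higher at ZT0 and 4 lower at ZT12. By mean difference over both times the lowest (of genes clear of background on each array) were Epas1, the HIF-2 alpha gene (-1.10 and -0.10), Cul2, a scaffold of the VHL complex (-0.76 and 0.11), and Cited2, which competes with HIF for its coactivators (2.06 and -2.07). The highest were the coactivator Crebbp (-0.81 and 1.83), the elongin gene Tceb2 (0.64 and -0.03) and the coactivator Ep300 (2.0 and -1.51). Hif1a and Epas1, which encode paralogous subunits, therefore had opposite signs at ZT0.

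Of 29 further glycolysis and pyruvate genes 22 were measured, with medians of 0.39 and -0.40. Past 2-fold at ZT0, 6 were higher (27.3%, near the 20.5% of all features) and 4 lower (18.2%, against 31.5%). At ZT12, 3 were higher (13.6%, against 32.2%) and 6 lower (27.3%, against 17.9%). Among genes well above background on all 4 arrays, the lowest mean differences belonged to Slc16a1, the lactate carrier MCT1 (-2.61 and 0.03), Bpgm, the bisphosphoglycerate mutase of red cells (-2.39 and 0.93), and Eno3, the muscle enolase (-1.07 and -0.11). The highest belonged to the muscle mutase Pgam2 (0.03 and 2.06), Hk3, a hexokinase of myeloid cells (3.21 and -1.94), and Fbp1, fructose bisphosphatase (2.25 and -1.07). At ZT0 the lactate carriers Slc16a1 and Slc16a3 thus differed in sign. Hkdc1, Pklr, Fbp2, Slc2a2, Slc2a4 and Pdk4 were among those that did not pass the filter.

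Of 32 further HIF targets 30 were measured, with medians of 0.48 and -1.10, close to those of the 12 targets above. Past 2-fold at ZT0, 13 were higher (43.3%, against 20.5% of all features) and 6 lower (20.0%, against 31.5%). At ZT12, 4 were higher (13.3%, against 32.2%) and 17 lower (56.7%, against 17.9%). These counts include Car12 and Edn1, well above background on just 2 arrays, those where they were high, so their signs add no support. Stc2, also counted, was so on 3 arrays. With a filter on all 4 arrays 27 genes remained, 12 higher and 4 lower at ZT0 and 3 higher and 15 lower at ZT12. Plod2, a collagen lysyl hydroxylase (-2.55 and -0.37), and Tfrc, the transferrin receptor (0.01 and -1.42), were among the lowest by mean difference. Hmox1, haem oxygenase (1.43 and -0.55), the kinase gene Pim1 (2.35 and -1.65) and the chemokine receptor Cxcr4 (1.86 and -1.20) had the highest. Ppp1r3c and Tmem45a did not pass the filter.

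Markers of several cell types differed between the same arrays. Of 12 neutrophil markers, 10 were higher in ALDH-high cells at ZT0 and 9 lower at ZT12 (medians 3.29 and -2.13), all were well above background on all 4 arrays, and the summed signal in units of the 75th percentile was 2310, 3729, 2299 and 3164 in the order above. Ly6g gave 4.97 and -3.06, S100a8 0.35 and 0.57, and S100a9 -0.26 and 1.27. The sum is weighted towards the brightest genes, S100a8, S100a9 and Csf3r (-0.72 and 1.70), which were higher in ALDH-high cells at ZT12. In 9 of the 12 markers, and in 32.4% of all features, both position 1_2 arrays lay above both position 1_1 arrays. The 10 immediate early genes, which respond within minutes to handling or stimulation, were all higher at ZT0 and all lower at ZT12 (medians 2.83 and -2.03, with a summed signal of 239.4, 1663, 1417 and 299.8). Fos gave 3.02 and -2.36, Fosb 2.53 and -1.48 and Jun 1.99 and -1.70. These 2 arrays, on which Slc2a3, Pfkfb4 and Hif1a were high, were thus also the high ones for those 9 neutrophil markers, Ly6g among them, and for the summed immediate early genes.

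All 9 epithelial markers were lower in ALDH-high cells at ZT0 and higher at ZT12 (medians -4.07 and 0.55). With median scaling 7 of the 9 were lower at ZT12, with a median of -0.38. Their summed signal was 193.7, 11.6, 85.3 and 92.9. Epcam gave -3.57 and 1.08, Cdh1 -1.08 and 0.66, and Krt8 -4.07 and 0.07, and Cldn4 was not well above background on 1 array. Their lowest array, ZT0 ALDH high, was also the lowest for Car9, P4ha2, Aldoc, Eno2 and Pfkm, and for Hk1, Pdk1, Adm and Ndrg1. Markers of T and NK cells (medians -3.18 and 5.12; 9 of 10 lower at ZT0 and 10 higher at ZT12), B cells (-1.84 and 4.37; 5 of 6 and 6) and red cells (-8.57 and 6.41; all 5 measured) ran opposite to most members. Their summed signals were 35.9, 16.4, 4.18 and 46.6 for T and NK cells, 19.2, 5.12, 1.52 and 29.6 for B cells and 714.3, 2.89, 3.22 and 241.7 for red cells. Of these, Cd3g, Ncr1, Cd79a, Hbb-b1, Alas2 and Slc4a1 were not well above background on at least 1 array, and Klf1 and Epb4.2 were among those that did not pass the filter. Ncr1, Cd79a, Alas2 and Slc4a1 passed it on just 2 arrays, those where they were high, so their signs add no support. With a filter on all 4 arrays, 8 T and NK cell (medians -2.70 and 4.64), 5 B cell (-1.21 and 5.59) and 2 red cell markers (-8.21 and 6.43) remained. Cd3e gave -1.57 and 2.97, Cd3d 1.90 and 1.03, Cd79b -4.39 and 5.62, Ms4a1 -1.21 and 5.60, Hba-a1 -7.85 and 6.16 and Hbb-b2 -8.57 and 6.69.

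Macrophage markers (8 measured; medians -1.43 and 1.06; summed signal 218.1, 312.7, 334.8 and 283.8) included C1qa at -2.80 and 3.19, C1qb at -2.57 and 3.23 and C1qc at -2.67 and 2.90. Cd14 (2.24 and -1.68), Csf1r (0.61 and -0.27) and Cd68 (0.36 and -0.08), chosen after their values were seen, had the opposite signs. Fibroblast markers (7 measured; -0.43 and 0.24; 24.8, 21.4, 13.7 and 15.3) differed less, with Col1a1 at -0.65 and 0.94, Col1a2 at -0.43 and 0.86 and Col3a1 at -0.05 and 0.24, and Pdgfrb was not well above background on 1 array. Of 6 endothelial markers, Cdh5, Tek and Emcn did not pass the filter and Esam did so on 2 arrays, and Pecam1 gave 0.54 and -0.04 and Kdr -1.83 and 2.04 (medians of the 3 measured 0.54 and 0.68; summed signal 0.726, 0.618, 0.494 and 0.850). The share of these cells in the differences of the 35 genes was not tested.

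**Figure D4:**
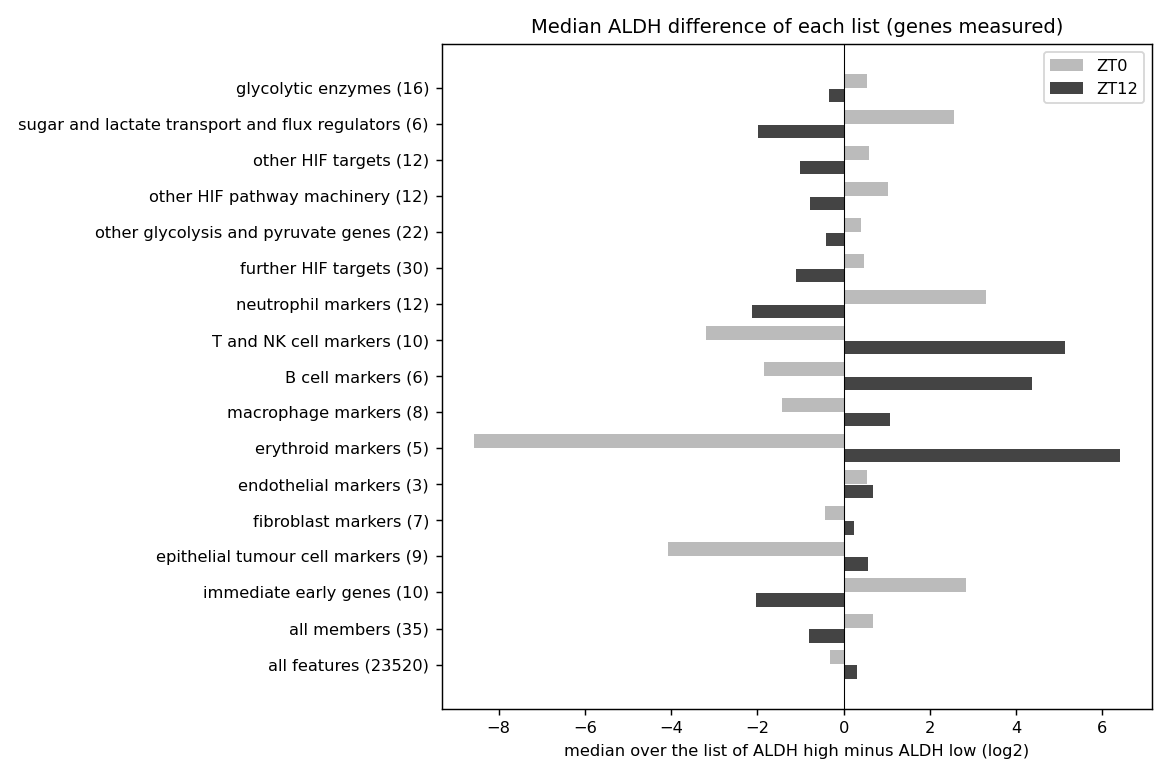
Median Log2 difference of ALDH-high from ALDH-low cells of each list at ZT0 (light bars) and ZT12 (dark bars), with the number of genes measured in brackets. The member lists point to the right at ZT0 and to the left at ZT12, as do neutrophil markers and immediate early genes, and the T and NK cell, B cell, red cell and epithelial markers point the other way (the epithelial median at ZT12 is -0.38 with median scaling).

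Where several probes report one gene, they can be compared with each other. The 35 genes had 83 probes, 80 of them well above background on at least 2 arrays. Of 21 genes with several such probes, 14 had the same sign of the ALDH difference in every probe at both times, and the other 14 members rested on 1 probe. Slc2a3, Pfkfb3, Pfkfb4, Slc16a3, Pfkp (5 probes), Gpi1 and Pkm (4 probes each), Car9 and Aldoc (3 probes) were among those that agreed. The second probes of Pfkfb4 (-5.87, -2.48, -2.83 and -5.32) and Slc16a3 (-4.51, -3.07, -2.30 and -5.65) were well above background on just 2 arrays. They passed the filter through the arrays where they were high, so the agreement of their signs adds no support. In Gapdh, Hif1a, Hk1, Pdk1, Pfkl, Pgk1 and Vegfa at least 1 probe had the opposite sign.

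The first 30 bases of 6 of these 60-base probes are printed for 3 of these 7 genes, each pair giving the brightest probe and one that differs from it. They come from the deposited files. In mm9 coordinates the Gapdh probes lie at chr6:125111858-125111865 and chr6:125111908-125111967, the Hk1 probes at chr10:61731230-61731288 and chr10:61731856-61731915 and the Vegfa probes at chr17:46155512-46155571 and chr17:46159226-46159282, all on the minus strand.
Gapdh, brightest: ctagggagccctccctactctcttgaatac
Gapdh, second: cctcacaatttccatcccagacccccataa
Hk1, brightest: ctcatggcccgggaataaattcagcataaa
Hk1, second: ggaatctcccatcgctttagtgagccattg
Vegfa, brightest: actggattcgccattttcttatatctgctg
Vegfa, other: aaagggaaagggtcaaaaacgaaagcgcaa
For Gapdh the file places the 60-base brightest probe on just 8 bases, and it gave 0.32 and 0.44, whereas the 6 other Gapdh probes gave 0.93 to 1.16 at ZT0 and -0.85 to -0.40 at ZT12. With those probes the Gapdh differences have the signs of the brightest probes of Tpi1, Pgk1, Pgam1 and Ldha at both times. For Hk1 the second probe gave 1.09 and -1.40, opposite to the -0.60 and 0.67 of the brightest, and the third gave -0.03 and 0.17. For Vegfa the other probe shown gave -4.57 and 7.22, and the remaining 2 gave 1.22 and 0.68 at ZT0 and -1.38 and -1.17 at ZT12.

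In Pfkl a dim probe, well above background on 2 arrays, gave -2.49 and 3.53 against 1.28 and -1.34 for the brightest. In Pgk1 a dim probe gave -1.33 and 1.41. In Hif1a a probe well above background on all 4 arrays, at a mean level of 0.18, gave -0.15 and 0.38. Those in Pgk1 and Hif1a were the 2 probes, of 77 with a RefSeq gene strand, that the file places on the strand opposite to the gene. The remaining Hif1a probe gave 1.51 and -1.77, with the signs of the brightest, at levels of -4.22, -2.72, -2.29 and -4.06. It was well above background on just 2 arrays, those where it was high, so its signs add no support.

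**Figure D5:**
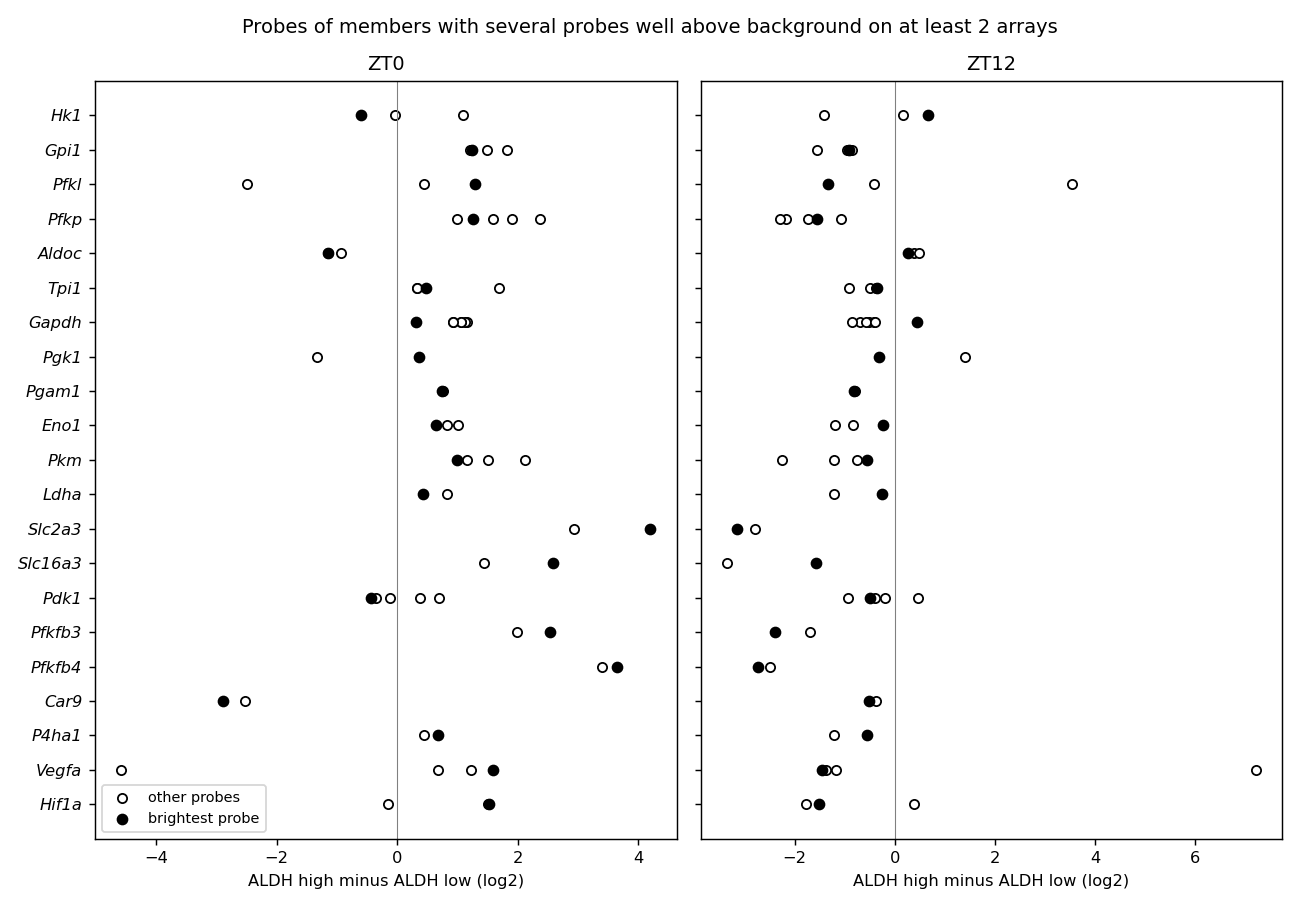
Log2 difference of ALDH-high from ALDH-low cells at ZT0 (left) and ZT12 (right) for each probe of the 21 genes with several probes well above background on at least 2 arrays; filled points are the brightest probe of a gene and open points the others. The open Vegfa point at -4.57 and 7.22 and the open Pfkl point at -2.49 and 3.53 lie far from the other probes of those genes.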

How the data were processed

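Total RNA of 4 sorted fractions was amplified, labelled with Cy3 and hybridised to one-colour Agilent arrays, per the labels' protocols. Per the file headers, Agilent Feature Extraction 10.7.1.1 made the values and the array grid names build mm9, whereas version 9.5.1.1 is named in the submitters' processing notes. The deposited processed signal is a linear intensity from which background was subtracted within each array, with no normalization between arrays. The authors' deposited series table also holds intensity values, quantile normalized, and was used as an alternative.

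Control spots and outlier spots were left out, replicate spots were averaged, and the log2 of each deposited intensity minus the log2 of the 75th percentile of its array was used. Of 56605 probes, those well above background on at least 2 of 4 arrays were kept, and the brightest stood for each gene name. With 1 array a group, a difference has no test, and 2-fold (1 log2 unit) is the threshold used. The additive fit was made with lmFit and eBayes of limma 3.58.1 under R 4.3.3, with two-sided p-values adjusted by Benjamini-Hochberg over 23520 features, and was tested on simulated data. Its variance prior had infinite degrees of freedom, and each ALDH or time effect had an SE of 1.54 log2 units. That SE comes from changes of the ALDH difference between times, not from replicates. Tables and plots came from Python 3.11.15 (pandas 2.3.3, numpy 2.4.6, matplotlib 3.10.9).

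The members and all gene lists were chosen with earlier results of these data known. The array levels printed follow a rule: members at least 2-fold different at both times, the 3 highest and 3 lowest enzymes and HIF targets at each time, every transport or flux gene and Hif1a. The levels of Gpi1, Aldoa, Eno1, Bnip3, P4ha1, Egln1 and Higd1a were added after their values were seen. From each further pathway list the 3 highest and 3 lowest by mean ALDH difference are named among genes well above background on all 4 arrays (Car12, -2.41 and -1.68, was so on 2), and from each marker list the first 3 and those not well above background. Some of the genes this names are not reported here. Alternatives were median scaling, quantile normalization, normexp (offset 50) with quantile normalization, a filter on all 4 arrays, no filter, the mean of probes and the series table. Exon and UTR positions were not analysed here, and Ndrg1 and Slc2a3 had no promoter window.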

Additional observations from a re-analysis of the deposited data

Results flagged for a closer look

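The ALDH difference ran in opposite directions at ZT0 and ZT12, past 2-fold at each, in 12 of the 35 genes. With 1 array a group the change between times was not tested, and array position coincides with it. The ZT12 difference minus the ZT0 difference, in log2 units, was -7.35 for Slc2a3, -6.39 for Pfkfb4, -4.93 for Pfkfb3, -4.17 for Slc16a3 and -2.90 for Slc2a1 among the transport and flux genes. It was -2.87 for Hk2, -2.81 for Pfkp and -2.62 for Pfkl among the enzymes. Among the other HIF targets it was -3.68 for Egln3, -3.05 for Vegfa and -2.60 for Ankrd37, and for Hif1a it was -3.03. The list medians turned over as well: by -0.87 for the glycolytic enzymes, -4.55 for the transport and flux genes and -1.60 for the other HIF targets. Groups of 1 array leave no room to look for an array that stands apart within its group.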

How the results depend on the processing

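Of 33 member differences past 2-fold, all 33 kept their direction with each of the 3 other scalings and the series table, and 29 did with the mean of probes. There Pfkl turned to -0.26 at ZT0 and 0.59 at ZT12 and Vegfa to -0.27 and 0.80, since probes of opposite sign enter the mean. Of the 33, between 22 (normexp and quantile normalization) and 31 (median scaling) stayed past 2-fold. Both other filters keep the same probe for every member, so all 33 had to stay as they were with them.

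In the order median scaling, quantile normalization, normexp and quantile normalization, mean of probes and series table, the enzyme median was 1.04, 0.62, 0.60, 0.67 and 0.60 at ZT0 and -1.27, -0.99, -0.97, -0.48 and -0.97 at ZT12. That of the other HIF targets was 1.09, 0.28, 0.28, 0.47 and 0.27 at ZT0 and -1.95, -0.80, -0.77, -0.93 and -0.80 at ZT12. The gap of targets minus enzymes, 0.05 at ZT0 and -0.68 at ZT12 with median scaling as in the report, was -0.34, -0.32, -0.19 and -0.33 at ZT0 and 0.18, 0.20, -0.45 and 0.17 at ZT12 with the other 4. The filters left these values as they were. The cause of the change of sign was not tested.

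The median over both times was 0.03 for enzymes and -0.18 for targets. It was 0.27 and 0.26 within position 1_1, -0.29 and -0.71 within position 1_2, 0.54 and 0.59 within the ZT0 slide and -0.33 and -1.01 within the ZT12 slide.

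Counts of members, an alternative chosen after seeing the data, moved most with median scaling, which shifts all features: 20 higher and 3 lower at ZT0, 29 lower at ZT12, 29 higher at ZT12 in ALDH-low cells, and 2 higher and 16 lower in ALDH-high cells. At ZT0, 8 were higher with quantile normalization and 8 with normexp and quantile normalization, and 6 were lower at ZT12 in ALDH-high cells with the series table. The shares of all features under these settings are not given here.

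The limma fit called 0 features under all settings run, with 1 to 48 at an unadjusted p under 0.05 for ALDH and 0 to 17 for time. Array position as a random block could not be fitted, and no replicate could be left out with 1 array a group.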
